A study of Homo sapiens with 6 samples.

Results

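The genes described here were the integrin and laminin subunit genes, the receptors that fasten an epithelial cell to its matrix and the trimers that make up the matrix they hold. Members were the protein-coding genes of the GENCODE annotation of hg19 whose symbol starts with ITGA, ITGB, LAMA, LAMB or LAMC followed by the number or letter of the subunit. This gave 38 genes of 20162 protein-coding genes, namely 18 integrin alpha chains, 8 integrin beta chains and 12 laminin chains. ATAC-seq, in which the Tn5 transposase cuts and tags accessible DNA, had been run on 6 libraries of 3 established human esophageal cell lines, with 2 libraries per line that the series describes as biological replicates. HET-1A is a non-cancerous esophageal epithelial line, grown in BEBM medium (libraries HET-1A-1 and HET-1A-2). KYSE-30 (libraries KYSE-30-4 and KYSE-30-6) and KYSE-150 (libraries KYSE-150-7 and KYSE-150-8) are esophageal squamous cell carcinoma (ESCC) lines, both grown in RPMI/F12 with serum. A library is named here by its line and number, so that HET-1A-2 is lib. 2 of HET-1A in the plots. The labels name no treatment, and the culture medium differed between HET-1A and the ESCC lines, so line and medium cannot be told apart.

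An integrin is a heterodimer of an alpha and a beta chain that spans the plasma membrane and joins the extracellular matrix to the cytoskeleton. A laminin is a trimer of an alpha, a beta and a gamma chain, and laminins form the sheet of the basement membrane on which epithelial cells rest. In stratified squamous epithelium such as the esophageal lining, basal cells are anchored through the integrin of the alpha6 and beta4 chains, which binds laminin-332, a trimer with the LAMA3 and LAMB3 products. AP-1, a dimer of FOS and JUN family proteins, binds the sequence TGACTCA, which reads as TGAGTCA on the other strand.

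The deposited data were lists of called peaks, so a gene without a peak had no site past the threshold of the list, and was not shown to be closed. The lists differed greatly in length. HET-1A-2 held 15979 peaks and KYSE-30-6 held 11671, against 168 in HET-1A-1, 1255 in KYSE-30-4, 547 in KYSE-150-7 and 259 in KYSE-150-8. The libraries of HET-1A, and those of KYSE-30, thus differed from each other more than HET-1A-2 and KYSE-30-6 did, and nearly all peaks at the members came from HET-1A-2 and KYSE-30-6. Because the smallest p that an exact permutation of 2 against 2 libraries allows is 0.33 (two-sided), lines were not tested against each other and the values are given by library.

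The sequences that the results turn on were the 200 bp around the summits of regions shared by the most libraries. The LAMB3 promoter, 1 of 10 regions found in the HET-1A-2 and KYSE-30-6 lists alone, was added after its values were seen. The LAMA2 region with the highest fold enrichment in HET-1A-2 was also included. All were read from the forward strand of hg19, and capitals mark the AP-1 core. In hg19 the windows were chr18:21452690-21452889 for LAMA3, chr1:209826425-209826624 for LAMB3, chr1:183029628-183029827 for LAMC1, chr2:161062078-161062277 for ITGB6, chr2:187454569-187454768 for ITGAV, chr5:52095777-52095976 for ITGA1 and chr6:129812243-129812442 for LAMA2. Their order is LAMA3 and LAMB3, the laminin gamma1 intron, and then the integrins and LAMA2.
LAMA3, start of the short transcript: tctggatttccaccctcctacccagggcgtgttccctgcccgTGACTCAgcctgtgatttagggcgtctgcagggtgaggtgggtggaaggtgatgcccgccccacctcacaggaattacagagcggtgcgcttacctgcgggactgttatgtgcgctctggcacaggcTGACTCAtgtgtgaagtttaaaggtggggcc
LAMB3, promoter: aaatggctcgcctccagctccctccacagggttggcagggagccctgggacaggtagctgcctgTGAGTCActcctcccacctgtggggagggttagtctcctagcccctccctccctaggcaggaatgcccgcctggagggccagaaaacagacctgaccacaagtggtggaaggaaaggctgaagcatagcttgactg
LAMC1, intron: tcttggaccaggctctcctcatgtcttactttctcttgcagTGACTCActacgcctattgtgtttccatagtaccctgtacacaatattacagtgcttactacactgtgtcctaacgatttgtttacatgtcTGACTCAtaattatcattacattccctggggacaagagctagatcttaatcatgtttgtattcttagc
ITGB6, upstream: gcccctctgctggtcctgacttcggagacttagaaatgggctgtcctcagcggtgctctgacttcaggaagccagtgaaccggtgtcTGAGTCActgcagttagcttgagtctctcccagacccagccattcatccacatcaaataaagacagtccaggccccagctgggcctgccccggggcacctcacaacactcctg
ITGAV, promoter: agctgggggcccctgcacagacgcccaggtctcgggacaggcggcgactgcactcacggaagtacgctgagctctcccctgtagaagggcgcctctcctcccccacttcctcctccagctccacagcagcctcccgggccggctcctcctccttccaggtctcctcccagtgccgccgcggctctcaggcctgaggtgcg
ITGA1, intron: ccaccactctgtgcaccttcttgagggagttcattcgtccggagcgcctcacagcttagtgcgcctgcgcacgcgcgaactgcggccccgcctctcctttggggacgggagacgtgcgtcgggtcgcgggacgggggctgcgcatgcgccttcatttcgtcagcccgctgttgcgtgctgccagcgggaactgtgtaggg
LAMA2, start of a short transcript: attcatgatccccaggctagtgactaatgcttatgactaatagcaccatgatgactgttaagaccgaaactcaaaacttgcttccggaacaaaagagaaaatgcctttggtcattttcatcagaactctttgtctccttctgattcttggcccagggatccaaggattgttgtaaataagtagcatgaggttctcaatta

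The LAMA3, LAMB3, LAMC1 and ITGB6 windows had the AP-1 core. The LAMA3 window held 2 copies with centres 127 bp apart, centred 249 and 122 bp before the start of the short transcript. The LAMC1 intron window also held 2 copies, 91 bp apart, while LAMB3 held 1 copy 722 bp before its start and ITGB6 held 1 copy 9 bp from the summit. No core was found in the ITGAV, ITGA1 and LAMA2 windows, which says only that these letters were not in those 200 bp. A LAMC1 window 505 bp after the start, shared by both KYSE-30 libraries, is not printed and held no core. Of the other regions in the HET-1A-2 and KYSE-30-6 lists alone, those of ITGA3, ITGA10, ITGAL and LAMA4 held no core. Those of ITGA6, ITGB5, ITGB8, LAMA5 and a further ITGA1 intron did. The number of printed windows with the core is therefore not a share of the shared regions. A match is a description of the sequence and was not tested as a binding site.

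Across the 38 members, 29 had a called peak in the gene body or within 10 kb of it in at least 1 library. In HET-1A-2 the members with a peak were 24 (63.2%), where 51.1% of all protein-coding genes had one. In KYSE-30-6 they were 23 (60.5%, all genes 41.6%), and in KYSE-30-4 they were 6 (15.8%, all genes 6.53%). KYSE-150-7 had a peak at 1 member (2.63%, all genes 2.89%). No member had a peak in HET-1A-1 or KYSE-150-8, where the shares of all genes were 0.471% and 0.898%. With nothing added to the gene bodies, the members with a peak were 23 in HET-1A-2 (60.5%, all genes 38.0%), 15 in KYSE-30-6 (39.5%, all genes 30.7%) and 5 in KYSE-30-4 (13.2%, all genes 3.88%), so the gap to all genes in KYSE-30-6 was smaller without the flanks. The members are long, with a median of 80.6 kb (range 12 to 633) against 27.2 kb for all protein-coding genes, and a long gene has more room for a peak. Per megabase of extended gene, the members held 10.7 peaks in HET-1A-2 (all protein-coding genes 7.66), 7.75 in KYSE-30-6 (all 5.59) and 1.47 in KYSE-30-4 (all 0.601). These 51, 37 and 7 peaks were 0.319%, 0.317% and 0.558% of their lists, with Wilson 95% intervals of 0.243 to 0.419, 0.23 to 0.437 and 0.27 to 1.15 that cover counting error only. The 3 intervals overlapped.

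**Figure D1:**
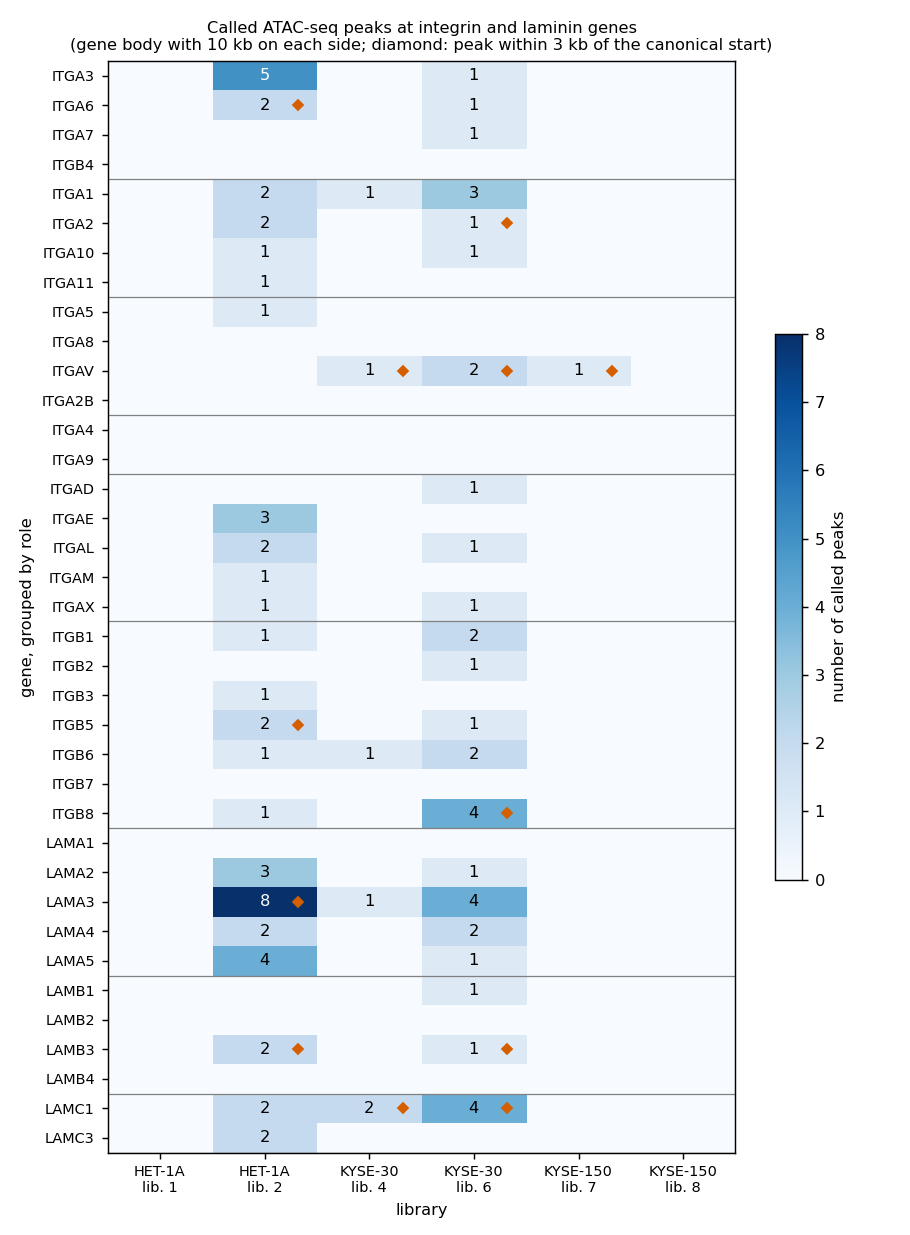
Number of called peaks in 37 of the 38 integrin and laminin genes with 10 kb on each side (rows, grouped by role) in each of the 6 libraries (columns), with darker blue for more peaks and a diamond for a peak within 3 kb of the canonical start. Nearly all peaks lay in HET-1A-2 and KYSE-30-6, LAMA3 had the most with 8 and 4, and 9 rows were empty.

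The start sites gave a different picture depending on which starts were counted. Within 3 kb of the start of any annotated transcript of the gene, non-coding transcripts included, 14 members had a peak in HET-1A-2 (36.8%, all genes 35.4%), 11 in KYSE-30-6 (28.9%, all genes 28.7%), 4 in KYSE-30-4 (10.5%, all genes 3.87%) and 1 in KYSE-150-7 (2.63%, all genes 1.79%). The shares of all genes in HET-1A-1 and KYSE-150-8 were 0.0942% and 0.362%, with no member. Around the canonical start alone, the members with a peak were 5 in HET-1A-2 (13.2%, all genes 30.4%) and 6 in KYSE-30-6 (15.8%, all genes 25.0%). Among those in HET-1A-2 were ITGA6, ITGB5, LAMA3 and LAMB3, and among those in KYSE-30-6 were ITGA2, ITGAV, ITGB8, LAMB3 and LAMC1. Members with one in both libraries, LAMB3 among them, made up 5.26% (all genes 15.6%). In KYSE-30-4 the canonical starts with a peak included ITGAV and LAMC1 (7.89% of members, all genes 3.35%), and in KYSE-150-7 that of ITGAV (2.63%, all genes 1.52%), while no member had one in HET-1A-1 (all genes 0.0446%) or KYSE-150-8 (all genes 0.164%). In the 2 long lists the members thus had peaks at their canonical starts in a smaller share than genes at large. This rests on 5 and 6 members, was not tested, and uses a count chosen after seeing the data. The members' peaks lay mostly at later starts and in introns.

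**Figure D2:**
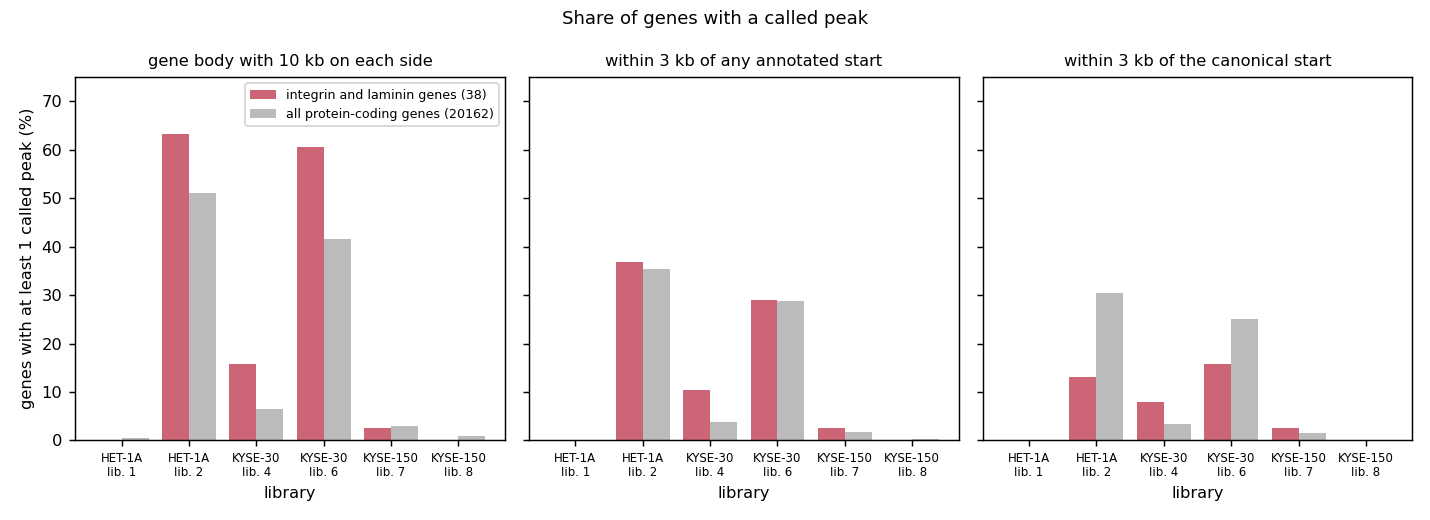
Percent of the 38 integrin and laminin genes (red) and of all 20162 protein-coding genes (grey) with at least 1 called peak in each library, for the gene with 10 kb on each side, for 3 kb around any annotated start and for 3 kb around the canonical start. In HET-1A-2 and KYSE-30-6 the red bar is above the grey one in the left panel (63.2% against 51.1%, and 60.5% against 41.6%) and below it in the right panel (13.2% against 30.4%, and 15.8% against 25.0%).

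Peaks that shared at least 1 bp were joined over the libraries, which gave 73 regions at the members. Of these, 36 were in the HET-1A-2 list alone and 20 in the KYSE-30-6 list alone. Another 10 were in both of these lists, and 5 in both of them and in KYSE-30-4. Peaks of both KYSE-30 libraries and of no other list made up 1 region, and the last had peaks in both KYSE-30 libraries and KYSE-150-7. Counted by member, a region that falls in 2 genes being counted in each, 35 lay within 3 kb of a start of that member, 24 in introns, 3 in exons, 6 upstream and 6 downstream. Those within 3 kb of the canonical start numbered 12. The 2 longest lists shared 15 regions, made by 29.4% of the 51 HET-1A-2 peaks and 40.5% of the 37 KYSE-30-6 peaks. Over all peaks of these lists the shares were 28.7% and 39.2%, so the overlap at the members was near that of the lists as a whole.

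LAMA3 and LAMB3, which encode chains of laminin-332, had regions shared between lines. LAMA3 (chr18:21269417-21536186, hg19, forward strand) encodes the alpha3 chain and has a long form and a short form that begins 183.57 kb after the canonical start. It had the most regions of any member, 11, with 8 peaks in HET-1A-2, 4 in KYSE-30-6 and 1 in KYSE-30-4. Its leading region lay at the short form's start (chr18:21452593-21453055), 195 bp before it. MACS2's fold enrichment, the height of the tag pile at the summit over the local background, was 7.69 in KYSE-30-6, 5.30 in HET-1A-2 and 5.12 in KYSE-30-4, with q-values of 3.01e-15, 1.66e-12 and 8.22e-07. The canonical start of the long form had a peak in HET-1A-2 alone, with a fold enrichment of 3.36 (q = 0.000555), 0.332 kb before that start. Of the other LAMA3 peaks of HET-1A-2, the highest lay in an intron 6124 bp after the canonical start, with a fold enrichment of 5.80. A pair of neighbouring LAMA3 peaks, 138433 and 139184 bp after the canonical start, came 1 from HET-1A-2 (5.07) and 1 from KYSE-30-6 (5.51) without touching.

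LAMB3 (chr1:209788215-209825770, reverse strand), the beta3 chain, had a region 754 bp before its start (chr1:209826376-209826661) with fold enrichments of 4.27 in KYSE-30-6 and 3.82 in HET-1A-2. HET-1A-2 had a second LAMB3 peak 2961 bp after the start, with a fold enrichment of 3.61. KYSE-30-4 had no LAMB3 peak. The local background at the LAMB3 promoter stood at 3.27 times the genome background in KYSE-30-6 and at 2.13 times in HET-1A-2, which lowers the fold enrichment of a given number of tags.

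**Figure D3:**
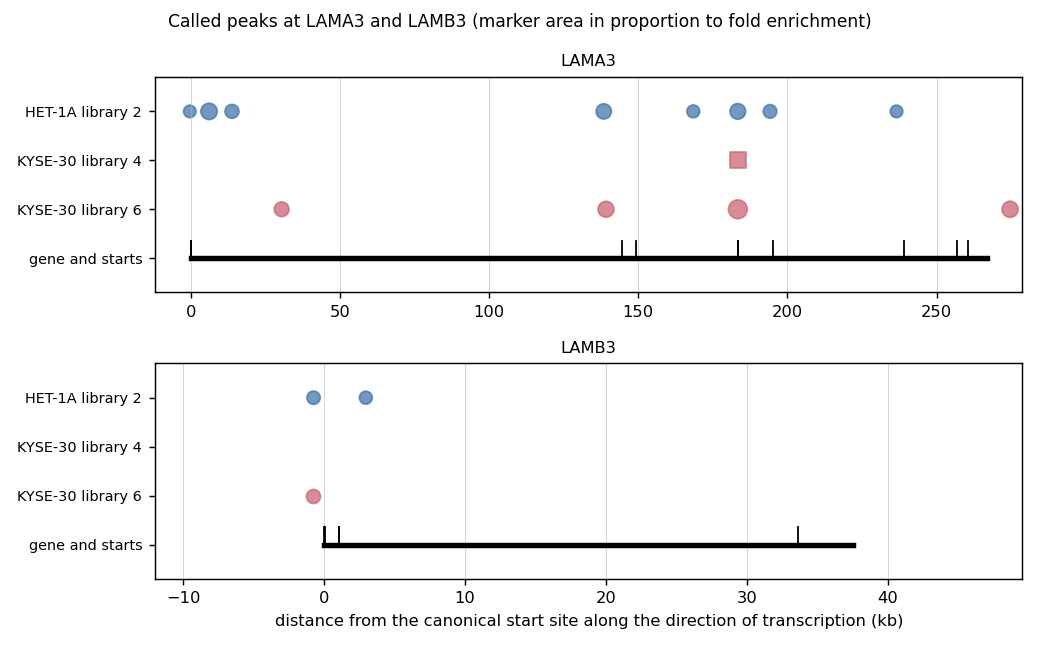
Called peaks along LAMA3 and LAMB3 in HET-1A-2, KYSE-30-4 and KYSE-30-6, by distance of the summit from the canonical start in kb, with marker area in proportion to fold enrichment and the gene and its protein-coding transcript starts drawn below. LAMA3 has a column of markers in all 3 libraries at the start of the short form 183.57 kb in, and LAMB3 has one 0.754 kb before its start in 2 libraries.

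Of the other laminin alpha chains, LAMA2, LAMA4 and LAMA5 had peaks and LAMA1 had none in any library. LAMA2, the alpha2 chain of muscle and nerve laminin, held the peak with the highest fold enrichment of any member in HET-1A-2, 6.68 (q = 1.39e-14), at chr6:129812175-129812483. This lay 608059 bp after the canonical start and 188 bp after the start of a short transcript near the end of the gene. KYSE-30-6 had a peak 5.73-fold over background close by (chr6:129811620-129811886), which did not touch it. LAMA5, the alpha5 chain found in most adult basement membranes, had 4 regions in HET-1A-2 with fold enrichments of 2.53 to 3.34 and 1 of these also in KYSE-30-6 (4.37). All 4 sat on a raised local background in HET-1A-2, at 3.01 to 3.74 times the genome background, and 1 of them lay 42 bp from the start of ADRM1. LAMA4, a chain of vessel wall and mesenchymal basement membranes, shared an intron region between HET-1A-2 (4.35) and KYSE-30-6 (6.35), and each of these libraries had 1 further peak.

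LAMC1, the gamma1 chain that most laminin trimers contain, had 5 regions (chr1:182992555-183114727, forward strand). Its leading region lay in an intron 37172 bp after the start (chr1:183029594-183029852), with fold enrichments of 8.07 in KYSE-30-6, 5.30 in HET-1A-2 and 4.71 in KYSE-30-4 (q = 5.25e-15, 8.14e-09 and 0.000143). At the start itself the peaks were from KYSE-30 alone. A region 505 bp after the start had fold enrichments of 4.01 in KYSE-30-6 and 3.68 in KYSE-30-4 (q = 0.000339 and 0.00326), and KYSE-30-6 had another 871 bp before the start (3.50). HET-1A-2 had no peak within 3 kb of the LAMC1 start. LAMC3, the gamma3 chain, had 2 intron peaks in HET-1A-2 (3.38 and 2.72), both on a local background of at least 2.98 times the genome background. Among the beta chains other than LAMB3, LAMB1 had 1 intron peak in KYSE-30-6 (4.90), and LAMB2 and LAMB4 had none.

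The integrin chains grouped here as laminin-binding were ITGA3, ITGA6, ITGA7 and ITGB4. ITGA6, the alpha6 chain of the hemidesmosome, had a peak on its canonical start (6 bp before it) in HET-1A-2, with a fold enrichment of 2.93 (q = 0.0105). An ITGA6 intron region 14595 bp after the canonical start was shared by KYSE-30-6 (5.45) and HET-1A-2 (5.06), and held 2 AP-1 cores. ITGB4, the partner of ITGA6 in the hemidesmosome, had no peak in any of the 6 lists. ITGA3, the alpha3 chain that pairs with beta1, had 5 peaks in HET-1A-2 at fold enrichments of 3.31 to 5.38. The highest lay 1333 bp after an internal start, and none of the 5 lay within 3 kb of the canonical start. The sole ITGA3 region shared with KYSE-30-6 (3.40 in HET-1A-2 and 4.17 in KYSE-30-6) lay downstream of the gene, 72 bp from the start of PDK2. The ITGA7 peak, in KYSE-30-6 alone (3.93), was 12 bp from the start of RDH5.

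All chains grouped here as collagen-binding, ITGA1, ITGA2, ITGA10 and ITGA11, had a peak in HET-1A-2, and the first 3 of them in KYSE-30-6. Of all genes, 51.1% and 41.6% had one in these libraries, and so few members cannot be told apart from these shares. The highest fold enrichment of any member in any library was at ITGA1, in an intron 12126 bp after the canonical start (chr5:52095699-52096116). It was 8.84 in KYSE-30-6, 5.06 in HET-1A-2 and 4.07 in KYSE-30-4, with q-values of 7.9e-18, 4.66e-08 and 0.00343. That region also lies within PELO, a ribosome rescue factor gene that overlaps ITGA1 on the same strand, and its summit was 55 bp from the start of the lncRNA PELO-AS1. The reading of this peak as one of ITGA1 is therefore uncertain. ITGA2, the alpha2 chain of the keratinocyte collagen receptor, had a peak 1433 bp before its canonical start in KYSE-30-6 (5.06), and 2 intron peaks in HET-1A-2 (5.48 and 4.60) that KYSE-30-6 lacked. ITGA10 shared a region over an exon between KYSE-30-6 (5.03) and HET-1A-2 (3.45), and ITGA11 had 1 intron peak in HET-1A-2 (2.88).

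ITGAV, the alphav chain, which pairs with several beta chains and recognises the RGD motif of fibronectin and vitronectin, was the sole member with a peak in KYSE-150. Its promoter region (chr2:187454324-187454894) was 115 bp before the canonical start by its KYSE-30-6 summit. The fold enrichment was 4.92 in KYSE-30-6, 3.94 in KYSE-30-4 and 3.6 in KYSE-150-7, with q-values of 7.1e-10, 5.79e-05 and 0.00616. The tags at the summit were 18.8, 9.30 and 5.72 times the genome background in these 3 libraries. No ITGAV peak was called in HET-1A-2, whose lowest called peak at the genome background had 3.59 times that background, and a raised local background would raise that threshold. The local background at ITGAV stood at 3.29 times the genome background in KYSE-30-6, 2.05 times in KYSE-30-4 and 1.33 times in KYSE-150-7. Among the other RGD-binding alpha chains, ITGA5 had 1 peak in HET-1A-2 (3.43), 1901 bp after an internal start, and ITGA8 and ITGA2B had none. ITGA4 and ITGA9, which bind VCAM1 and tenascin among others, had none.

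The beta chains other than beta4 had 6 peaks in HET-1A-2, 10 in KYSE-30-6 and 1 in KYSE-30-4. By gene, 5 of these 7 chains had a peak in HET-1A-2 and 5 in KYSE-30-6 (all genes 51.1% and 41.6%), and 4 of the KYSE-30-6 peaks were at ITGB8. ITGB6, the epithelial beta6 chain that with alphav activates latent TGF-beta, had its leading region 5394 bp before the canonical start (chr2:161062024-161062357). The fold enrichment was 6.89 in KYSE-30-6, 4.77 in KYSE-30-4 and 3.95 in HET-1A-2 (q = 1.24e-11, 3.87e-06 and 2.26e-05). KYSE-30-6 had a second ITGB6 peak 8049 bp before the start (6.06), also with the AP-1 core. ITGB8, another partner of alphav, had 4 regions, all with a peak in KYSE-30-6. Its promoter had 2 of them, 219 and 1110 bp before the canonical start (4.41 and 4.61), an intron had 1 (6.47), and a region over an exon 22213 bp after the start had fold enrichments of 6.98 in KYSE-30-6 and 3.68 in HET-1A-2. ITGB5 had a peak 84 bp before its canonical start in HET-1A-2 (3.28), and a region 8638 bp after that start, on an internal start, in HET-1A-2 (5.59) and KYSE-30-6 (4.96). ITGB1, the common partner of the laminin and collagen receptors, had 1 peak in HET-1A-2 (4.14) and 2 in KYSE-30-6 (4.82 and 5.43). All of these lay far upstream of its canonical start, and 2 of the 3 lay within 183 bp of a start of the divergent lncRNA ITGB1-DT. ITGB3 had 1 intron peak in HET-1A-2 (4.70), 98 bp from the start of the lncRNA EFCAB13-DT, ITGB2 had 1 peak in KYSE-30-6 (5.21), and ITGB7 had none.

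Of the 5 integrin alpha chains of leukocytes, 4 had a peak in HET-1A-2 and 3 in KYSE-30-6, where 51.1% and 41.6% of all genes had one. None of the lines is of blood origin, and so few genes cannot be told apart from these shares. In HET-1A-2, ITGAE had 3 peaks, ITGAL 2, and ITGAM and ITGAX 1 each. None of these lay within 3 kb of the canonical start. One of the ITGAE peaks (4.82) was 6 bp from the start of HASPIN, a kinase gene inside ITGAE, and another lay on an internal ITGAE start at a local background of 3.01 times the genome background (fold enrichment 4.97, q = 1.66e-18). The ITGAL region shared by HET-1A-2 (4.20) and KYSE-30-6 (5.32) lay downstream of the gene, 647 bp from the start of ZNF768. A KYSE-30-6 peak between ITGAX and ITGAD (4.91) was counted for both.

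The height of the shared regions was compared on a scale that adjusts for depth by the genome background. It does not take out other differences between libraries, and the libraries of KYSE-30 still differed on it, as given below. The tags under each summit were recovered from the fold enrichment and the p-value of the list and divided by the genome background of the library, which was 3.34 tags per 200 bp in HET-1A-2, 2.36 in KYSE-30-4 and 1.49 in KYSE-30-6. At the LAMA3 short-form start these scaled tags were 18.1 in KYSE-30-6, 8.46 in KYSE-30-4 and 9.87 in HET-1A-2. In the same order, the LAMC1 intron had 16.8, 6.34 and 6.58, the ITGA1 intron 18.8, 5.50 and 6.28, and the ITGB6 upstream region 14.8, 8.46 and 5.68. A region entered only if it passed the threshold of both lists, and the lowest scaled tags of a peak at the genome background were 3.59 in HET-1A-2, 5.07 in KYSE-30-4 and 5.38 in KYSE-30-6. In each of the regions just named KYSE-30-6 was the highest, and KYSE-30-4 was closer to HET-1A-2 than to the other KYSE-30 library.

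Over the 15 member regions shared by KYSE-30-6 and HET-1A-2, the ratio of scaled tags had a median of 1.82 (range 0.812 to 3.6), and 12 were above 1. Over all 4543 shared regions of these lists the median was 1.59. The largest ratios were 3.6 at the ITGB8 exon region and 3.0 at ITGA1, and the smallest were 0.812 at ITGB5 and 0.928 at ITGAL. Between the KYSE-30 libraries, 7 member regions had a median ratio of 2.12 for KYSE-30-6 over KYSE-30-4 (range 1.39 to 3.42), with 2.06 over all 697 shared regions. KYSE-30-4 over HET-1A-2 gave a median of 0.964 over 5 member regions (range 0.857 to 1.49) and 0.979 over all 625. By these medians, taken over different sets of regions, the difference between KYSE-30-6 and HET-1A-2 was no larger than that between the KYSE-30 libraries. Single regions varied. At ITGB6 the ratio of KYSE-30-6 was 2.6 to HET-1A-2 and 1.75 to KYSE-30-4, while at ITGA1, LAMA3 and the LAMC1 intron the ratio to KYSE-30-4 was the larger. No difference between the lines was shown at these regions.

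**Figure D4:**
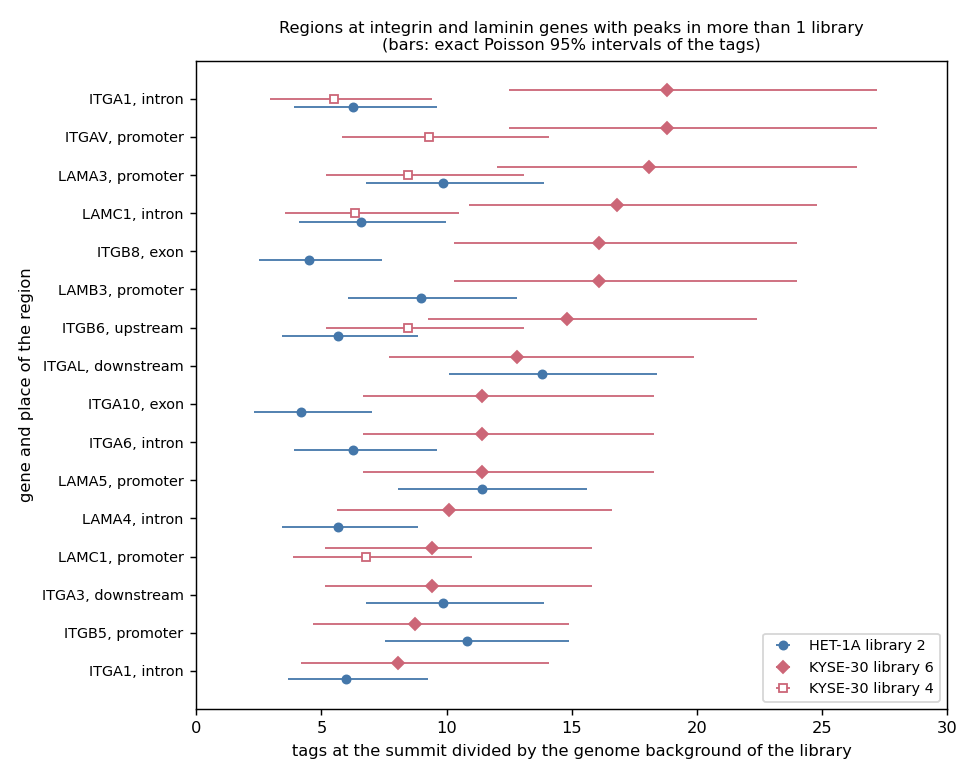
Tags at the summit divided by the genome background of the library (horizontal axis) for 16 member regions with peaks in more than 1 library, by gene and place (vertical axis). Points are HET-1A-2, KYSE-30-6 and KYSE-30-4, and bars are exact Poisson 95% intervals of the tags; KYSE-30-6 is the rightmost point at ITGA1 (18.8) and LAMA3 (18.1), with KYSE-30-4 near HET-1A-2. The KYSE-150-7 value at ITGAV (5.72) is not drawn.

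The background under the peaks was like that of the lists as a whole. In HET-1A-2 the local background at the members' peaks had a median of 1.68 times the genome background (all peaks 1.45), and 27.5% of them stood at 2 times or more (all peaks 27.1%). In KYSE-30-6 the median was 1.55 (all peaks 1.44) and 18.9% stood at 2 times or more (all peaks 20.4%). The median fold enrichment of the members' peaks was 4.08 in HET-1A-2 (all peaks 4.22) and 5.03 in KYSE-30-6 (all peaks 5.47), and both medians were slightly below those of the lists.

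The AP-1 core was then counted around the summits. In the 200 bp around the summit, 16 of 51 members' peaks held it in HET-1A-2 (31.4%, Wilson 95% interval 20.3 to 45.0), where 21.7% of all peaks did. In KYSE-30-6 it was 17 of 37 (45.9%, 31.0 to 61.6; all peaks 26.2%), and in KYSE-30-4 it was 4 of 7 (57.1%, 25.0 to 84.2; all peaks 10.4%). Within 3 kb of a start of a protein-coding gene, the core was in 8 of 17 members' peaks in KYSE-30-6 (47.1%, 26.2 to 69.0), where 9.39% of all such peaks held it. In HET-1A-2 the figures there were 7 of 29 (24.1%, 12.2 to 42.1) and 9.20%, and in KYSE-30-4 they were 2 of 4 and 4.42%. These starts were those of any annotated transcript, and the members' peaks differed from the lists in the kind of start. In KYSE-30-6, 28.9% of members had a peak at any start and 15.8% at the canonical one, against 28.7% and 25.0% of all genes. The share with the core was not compared at canonical starts alone. Farther from starts the core was in 9 of 20 members' peaks in KYSE-30-6 (45.0%, 25.8 to 65.8; all such peaks 40.4%), in 9 of 22 in HET-1A-2 (40.9%, 23.3 to 61.3; all 31.2%) and in 2 of 3 in KYSE-30-4 (66.7%, 20.8 to 93.9; all 16.6%). The intervals of KYSE-30-6 and HET-1A-2 there held the share of the list, and that of KYSE-30-4, from 3 peaks, did not. Peaks of 1 gene share their surroundings and the libraries share regions, so these intervals cover counting error only and no test was made.

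**Figure D5:**
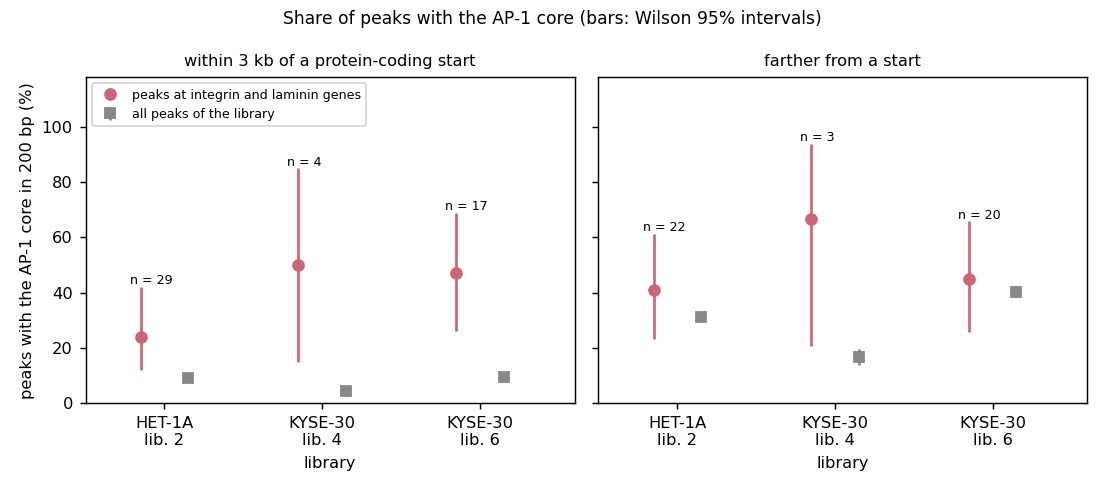
Percent of peaks with the AP-1 core in the 200 bp around the summit, for peaks at integrin and laminin genes (red circles, with their number) and for all peaks of the library (grey squares), within 3 kb of a protein-coding start and farther away, with Wilson 95% intervals. Near starts the red points are at 24.1%, 50% and 47.1% and the grey ones at 9.20%, 4.42% and 9.39%, and farther away, in the same order of libraries, the red ones are at 40.9%, 66.7% and 45.0% and the grey ones at 31.2%, 16.6% and 40.4%.

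In KYSE-30-6, 10 of 15 laminin peaks held the core (66.7%, 41.7 to 84.8) and 7 of 22 integrin peaks did (31.8%, 16.4 to 52.7; all peaks 26.2%). These intervals overlap, and LAMA3 and LAMC1 gave 4 of the 15 laminin peaks each. In HET-1A-2 the shares were 8 of 24 (33.3%, 18.0 to 53.3) and 8 of 27 (29.6%, 15.9 to 48.5; all peaks 21.7%), so the families were alike there. Further motifs were counted near starts, with the same limit on the kind of start. The GC box GGGCGG, common at CpG-rich promoters, was in 10 of 29 members' peaks in HET-1A-2 (34.5%, 19.9 to 52.7), below the 54.9% of all such peaks. It was in 6 of 17 in KYSE-30-6 (35.3%, 17.3 to 58.7; all 51.2%) and in 3 of 4 in KYSE-30-4 (75%, 30.1 to 95.4; all 51.1%), with intervals that include the share of the list. The ETS core CCGGAAG was in 1 of 29 in HET-1A-2 (3.45%, 0.611 to 17.2; all 13.9%), 1 of 17 in KYSE-30-6 (5.88%, 1.05 to 27.0; all 14.6%) and 0 of 4 in KYSE-30-4 (upper limit 49.0%; all 11.5%). The TEAD core GGAATG was in 4 of 29 (13.8%, 5.5 to 30.6; all 9.07%), 2 of 17 (11.8%, 3.29 to 34.3; all 9.82%) and 0 of 4 (upper limit 49.0%; all 8.04%) in the same order. Neither the ETS nor the TEAD core could be told apart from the lists within these intervals. All motifs were searched on both strands.

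Genes that act with integrins and laminins were read in the same way. Of 4 hemidesmosome genes other than the integrins, DST and PLEC, which tie the hemidesmosome to keratin filaments, had peaks in HET-1A-2 and in KYSE-30-6, while COL17A1 and CD151 had none. Of 13 adaptors that link integrin tails to actin, 6 had a peak in HET-1A-2 and 10 in KYSE-30-6, among them VCL (vinculin), TLN2 (talin-2), PXN (paxillin) and LIMS1 in both. Of 8 further basement membrane genes, 6 had a peak in HET-1A-2 and 4 in KYSE-30-6, with NID1, AGRN, DAG1 and COL4A2 in both. None of these genes had a peak in the other 4 libraries. Read against 51.1% and 41.6% of all genes, these counts include shares on either side of the background.

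The labelled cell type was checked against its markers. Of 10 markers of squamous epithelium, TP63, CDH1, EPCAM and PKP1 had a peak in HET-1A-2, and TP63, EPCAM and PKP1 in KYSE-30-6, with EPCAM the sole one at a start. KRT5, KRT14, KRT13, KRT4, SOX2 and DSG3 had no called peak in any library. Of 6 mesenchymal markers, HET-1A-2 had peaks at FN1 and COL1A1 and KYSE-30-6 at VIM and TWIST1. Of 6 leukocyte markers, 3 had peaks in each of these libraries, SPI1 and CD14 among them, away from starts. PTPRC, CD3E and LCP1 had none. Of 3 annotated endothelial markers, CDH5 had a peak in HET-1A-2. For genes at large the shares were 51.1% in HET-1A-2 and 41.6% in KYSE-30-6. The squamous counts, 4 and 3 of 10, were below these shares in both libraries, as were the mesenchymal ones. The leukocyte count was below the share in HET-1A-2 and above it in KYSE-30-6. So few markers cannot be told apart from these shares. No marker had a peak in the short lists, while the mesenchymal and leukocyte counts were the same in HET-1A-2 and KYSE-30-6. The peak lists did not separate the labelled cell type from others, and the reason was not tested. What part the markers have in the results at the members was not tested either.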

How the data were processed

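Peaks at the integrin and laminin genes were read from 6 deposited ATAC-seq peak lists, 2 per line, called by the authors for each library separately. Per the labels and the study's methods, reads were mapped to hg19 with Bowtie2 2.3.3.1, duplicates were marked with Picard 2.2.1, blacklisted regions were removed with bedtools 2.7.1, cut positions were shifted for Tn5, and sub-nucleosomal fragments went to MACS2 2.1.0.20160309 at a q-value threshold of 0.05. For each peak the deposited lists give a score, a ratio (fold enrichment at the summit), −log10 of the Poisson p-value, −log10 of the q-value after adjustment, and the summit position. The score was not used. Read totals are not given in the sources used here, so depth was taken from the lists.

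Genes and starts came from GENCODE 44 lifted to hg19, which lists the canonical transcript of each gene. Chromosome names and lengths matched between lists and genome. Tags at each summit and the local background were solved from fold enrichment and −log10 p, assuming a Poisson tail and a pseudocount of 1, within 0.001, for at least 99.61% of peaks per library. Genome background was taken as the lowest local value found in a list. This step was tested on simulated peaks. Regions were joined by 1 bp of overlap, and motifs were searched in 200 bp around summits. Python 3.11.15, pandas 2.3.3, scipy 1.17.1 and pysam 0.24.0 were used. No comparison between lines was tested, because 2 libraries per line cannot reach a p below 0.33.

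Genes were named in full where a region had peaks in both libraries of a line or in 3 libraries, where a gene was among the 5 with the most regions (6 with ties), where a region was among the 3 highest by fold enrichment in HET-1A-2 or KYSE-30-6, or where KYSE-150 or HET-1A-1 had a peak. Values of 1 member and 1 marker gene are not reported here on their own, though both are counted. The other members are given with their counts and fold enrichments. The members, lists and motifs were chosen with earlier results of these data known. Alternatives varied the flank, the promoter width, the starts counted, the q-value threshold, the overlap, the length of the lists and the libraries included.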

Additional observations from a re-analysis of the deposited data

How the results depend on the processing

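Cut to the 168 highest peaks per list, the length of the shortest, no member had a peak in HET-1A-2, KYSE-30-4, KYSE-30-6 or KYSE-150-7 (0 members each). So short a list had a peak at 0.779%, 0.883%, 0.997% and 0.952% of all genes in these libraries, so counts near 0 among 38 members carry no information on the members. With nothing added to the gene bodies, KYSE-30-6 had peaks at 15 members in place of 23 (39.5% against 30.7% of all genes). With the canonical start alone, an alternative chosen after seeing the data, members with a promoter peak were 5 in HET-1A-2 (14 with all starts) and 6 in KYSE-30-6 (11 with all starts). Leaving out 1 library of a line, the members with a region in all its remaining libraries ranged from 0 to 24 in HET-1A (24 without library 1), from 6 to 23 in KYSE-30 (23 without library 4) and from 0 to 1 in KYSE-150 (1 without library 8), since a single list is then left. Members with a peak in any library fell from 29 to 23 without HET-1A-2 and to 25 without KYSE-30-6, also chosen after seeing the data. The other alternatives run, namely a promoter of 1 kb, the nearest start, a q-value under 0.01, an overlap of 50% of each peak, the whole called peak for motifs and motifs outside promoters, left the counts within 1.5 times and the motif shares within their intervals. No paired analysis was possible because the lines share no library numbers and no result comes from a test. Peak lists hold only sites past a threshold, so a missing peak cannot be told apart from an open site that did not pass it. The genome background, in tags per 200 bp, was 1.88 in HET-1A-1, 2.8 in KYSE-150-7, 2.64 in KYSE-150-8 and 2.36 in KYSE-30-4. It was 1.49 in KYSE-30-6 and 3.34 in HET-1A-2, so on this measure the short lists lay between the 2 long ones. Why these lists were short was not tested.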
